A study of Mus musculus with 4 samples.

Results

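Late inner matrix-producing lesion fibroblasts were taken as the lesional nuclei rich in transcripts of Edar, Pappa, Col14a1, Eln and Matn4 (panel A), and 2203 such nuclei were found among 17029 lesional barcodes and 23489 barcodes in all. A nucleus was a member if it held at least 757 unique molecular identifiers (UMIs, counted transcripts), at most 1 UMI over 8 genes of other cell types, and at least 3 panel A UMIs, more than of each of 3 other fibroblast panels. Those panels were B (led by Ranbp3l), C (with Slco4a1 and Dnajc5b) and D (with Lama1), and 3365 nuclei fell to them. The nuclei were thus chosen by their own measured UMIs of these genes, and every difference between members and other fibroblasts is a description without a test. The names "late" and "inner" could not be checked, since the libraries hold a single time point and no positions.

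Single-nucleus RNA-seq was made from mouse brain 21 days after photothrombotic (PT) injury, a focal cortical ischaemia made by light. The library labelled control came from WT mice, and the library labelled Cxcl12-cKO from Col1a2(creER); Cxcl12(flox) mice, in which a tamoxifen-dependent Cre under Col1a2 control acts in cells that use this collagen promoter. Each library pooled tissue of a male and a female mouse, so a genotype had 1 library. Genotype and library cannot be told apart, no test between genotypes was made, and intervals cover counting error only. Lesion and surrounding parenchyma carried different oligonucleotide tags before pooling.

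The tags that assigned nuclei to the lesion are shown because membership rests on them.
CMO309, library labelled control: gttgatctataacag
CMO311, library labelled Cxcl12-cKO: gaatcgtgattcttc
In all 1027 members of the library labelled control and all 1176 members of the other, the lesion tag had more UMIs than any other tag. Its median was 5849 and 6249 UMIs, against medians of 114 and 133 for the next highest tag. The counts had been split into lesion and parenchyma by tag, so this followed from how members were drawn.

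Fibroblasts make the collagens, elastic fibres and proteoglycans of connective tissue. In the healthy brain they are found in the meninges and around vessels, and after injury they fill the lesion and lay down a scar. Cxcl12 is a chemokine that stromal cells make, with the receptors Cxcr4, which signals to migrating leukocytes, and Ackr3, which takes the ligand up.

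Members had a median of 3751 UMIs under the control label and 3940 under the Cxcl12-cKO label, above panel B (2963 and 3040) and below panel C (4462 and 4148). No barcode was shared between the members of both libraries, and 22 were shared between their lesional sets. Xist against Y-linked transcripts told the mice apart. The library labelled control held 386 female and 415 male members, and the other 357 and 534. UMIs of both sexes were found in 10.6% and 12.1% of members, near the 9.45% and 11.5% of the other panel fibroblasts. No doublet caller was run, and values by mouse leave out nuclei with UMIs of both sexes or of none.

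Cxcl12, the targeted gene, was higher under the Cxcl12-cKO label. Levels are given as CPM, the usual depth-scaled count, here each gene's UMIs over all UMIs of the summed nuclei. In members of the library labelled control Cxcl12 stood at 156 CPM in the female and 144 in the male mouse. Under the Cxcl12-cKO label the values were 414 and 240. Both of these mice lay above both control mice, and the log2 ratio over all members was 0.97 (95% interval 0.83 to 1.10). The other panel fibroblasts showed a log2 ratio of 0.93 (0.76 to 1.11), with 1.40 in panel B, 0.59 in C and 0.71 in D. The deleted stretch of the gene was not known here, so 3′ counts do not check the deletion, and directions between libraries refer to the labels only. Ackr3 was low in members, at 8.54 and 7.16 CPM, and Cxcr4 had 5 UMIs in each library.

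**Figure D1:**
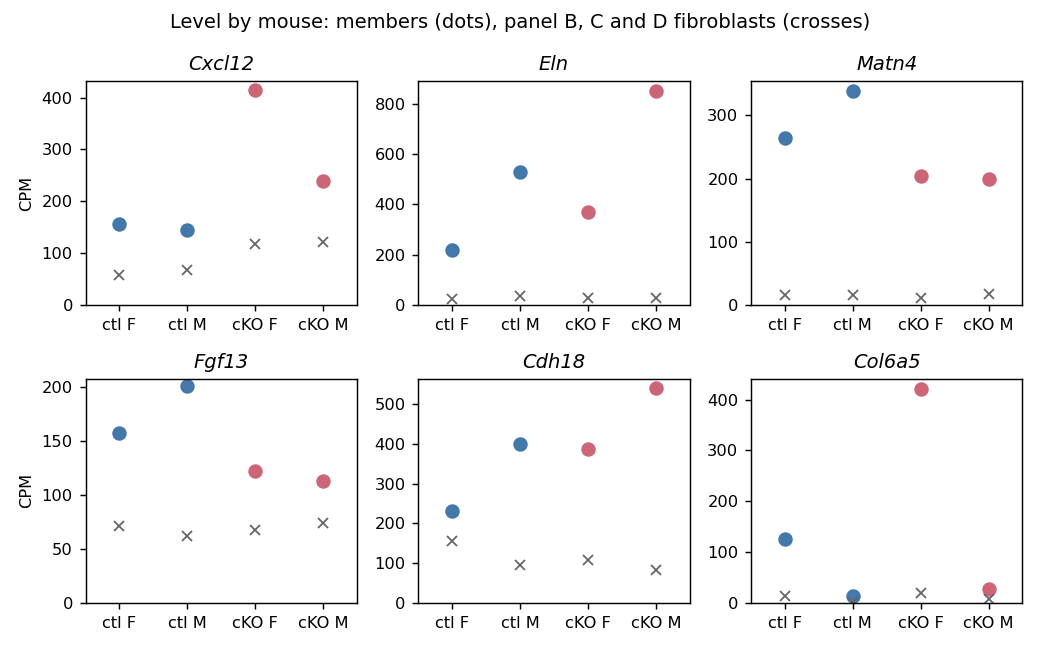
Level of 6 genes in CPM (y axis) in the female (F) and male (M) mouse of each library (x axis; ctl, labelled control; cKO, labelled Cxcl12-cKO). Dots are members and crosses are panel B, C and D fibroblasts; Cxcl12 in members reached 414 and 240 under the Cxcl12-cKO label against 156 and 144 under the control label.

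Members made up 36.4% (95% exact binomial interval 34.6 to 38.2) of the 2825 panel-assigned nuclei in the library labelled control. Under the Cxcl12-cKO label they made up 42.9% (41.0 to 44.7) of 2743, and the log2 ratio of the shares was 0.24 (0.12 to 0.36). In the female mice the share was 33.0% and 35.3%, with an interval of the log2 ratio that held 0 (-0.12 to 0.31). In the male mice it was 38.9% and 50.1%, with a log2 ratio of 0.37 (0.18 to 0.55). Of all lesional barcodes at the UMI minimum, members were 12.3% and 14.4%, and here the female ratio was -0.09 and the male ratio 0.49. Panel C, which competes for the same denominator, was 14.1% and 8.57% of assigned nuclei. After every nucleus was thinned to 757 UMIs before the panels were summed, 28.9% and 33.6% of assigned nuclei were members. The log2 ratio was then 0.22, with an interval that held 0 (-0.02 to 0.46).

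**Figure D2:**
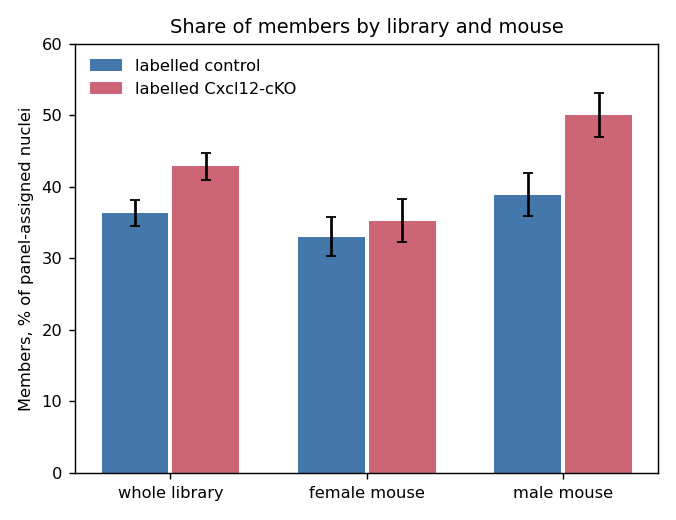
Members as a percentage of panel-assigned lesional nuclei (y axis) in the whole library, the female and the male mouse (x axis), with exact 95% binomial intervals. The male mouse under the Cxcl12-cKO label had the highest share, 50.1%, and the female mice were at 33.0% and 35.3%.

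The median panel sum was 6 UMIs under the control label and 7 under the other, with a highest value of 131 and 138. Just inside the threshold, 185 and 193 members had a sum of 3, and just outside it 278 and 277 nuclei had a sum of 2 that was above the other panels. The nuclei just outside carried Col1a1 at 1116 and 788 CPM, against 1052 and 949 just inside. Epha3 was at 1207 and 1126 outside and 1713 and 1559 inside.

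Col14a1, a collagen that sits on fibril surfaces, gave the largest part of the panel UMIs, 43.0% and 40.6%. Edar, the receptor of ectodysplasin, gave 2.72% and 2.75%. Pappa, a protease that frees insulin-like growth factor from its binding proteins, gave 19.4% and 17.0%. Eln, the elastin precursor, gave 19.0% and 30.1%, and Matn4, a matrix adaptor protein, gave 15.8% and 9.68%. Few members carried the whole panel: 9 and 17 nuclei had a UMI of all 5 genes, and 302 and 323 had UMIs of a single one. UMIs of 3 or more panel genes were found in 29.4% and 32.4% of members, and in 3.12% and 3.83% after thinning to 757 UMIs.

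Some genes the rule did not use had levels that followed the panel sum. In the library labelled control, Kctd8, a subunit that binds GABA-B receptors, was at 507 CPM in members with a sum of 3 to 4, 662 at 5 to 9 and 1142 at 10 or more. In the other library it was at 330, 482 and 546. Erg, an ETS transcription factor, was at 91.3, 139 and 179, and under the Cxcl12-cKO label at 153, 181 and 273. Col1a1 moved less, from 1027 to 1179 and from 937 to 1105. Other genes did not follow the sum in both libraries. Igf1 was at 803, 749 and 729, and under the Cxcl12-cKO label at 596, 629 and 774. Fgf13 was at 181, 245 and 186, and at 147, 112 and 115. Depth moved with the panel sum, from a median of 3085 to 4764 UMIs and from 3074 to 4844, and its part was not tested.

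Against the pooled panel B, C and D fibroblasts of the same library, members had higher levels of many collagens and other matrix genes and lower levels of many leptomeningeal genes. Of 14139 genes with at least 50 UMIs, and with the 32 rule genes left out, 404 (2.86%) were at least 2-fold higher in both libraries and 769 (5.44%) at least 2-fold lower. The median log2 ratio over all of them was 0.00.

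Fibrillar collagens were higher for 7 of 10 measured genes and lower for 0, with a median log2 ratio of 1.29 and 1.61. Col1a2, a chain of type I collagen, was at 2919 and 3552 CPM in the control-labelled female and male mouse and at 1930 and 2325 under the Cxcl12-cKO label. In the other fibroblasts it was at 1105, 1144, 565 and 652. Every mouse thus had more in members than in its own other fibroblasts, and so it was for Col3a1, at 1097, 1178, 1168 and 1150 in members against 341 to 475. Among the other collagens 8 of 20 were higher and 5 lower. Col12a1, which bridges fibrils, stood at 761 to 1061 over the mice against 157 to 220, and Col8a1, a short-chain network collagen, at 2073 to 3722 against 546 to 702. The lower ones were Col4a4, Col15a1, Col22a1, Col23a1 and Col25a1.

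Proteoglycans were higher for 5 of 17 genes (Acan, Bgn, Fmod, Aspn and Podn) and lower for 0, while Dcn, the small proteoglycan decorin, was not higher (log2 ratio -0.33 and -0.71). Of the elastic fibre genes 4 of 17 were higher and 1, Ltbp4, was lower. Among the higher was Mfap4, a microfibril-associated protein, with 63.1 and 74.3 CPM against 5.61 and 8.63. Collagen processing genes were higher for 5 of 22, including the lysyl hydroxylase Plod2 (1.47 in both libraries), and lower for 1. Matricellular genes split into 7 higher and 4 lower of 23, and matrix proteases and their inhibitors into 7 and 2 of 28. Adamts9, a protease that cleaves aggrecan and versican, was at 793 to 1181 over the mice against 132 to 247.

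Of the myofibroblast and contractile genes 3 of 14 were higher (Acta2, Myh11 and Ltbp2) and 1 lower. Acta2, smooth muscle actin, stood at only 3.79 and 3.87 CPM, and a UMI of it was found in 0.876% and 1.02% of members, against 0.270% and 0.311% of the far deeper parenchymal Slc17a7 neurons. The lower gene was Cthrc1, a secreted protein of myofibroblasts (8.77 and 7.93 against 18.4 and 18.3). Pdgfra, a growth factor receptor of fibroblasts, had log2 ratios of -0.74 and -0.76. Mural cell markers split: 3 of 5 measured genes, Notch3, Cspg4 and Myh11, were higher, while Rgs5 and Abcc9 were not. The summed list of 8 stood at 89.6 and 103 CPM against 21.9 and 31.7. In members Higd1b had 0 UMIs, Des 0 and 2, Kcnj8 0 and 1, and Myh11 only 22 and 37. The part of mural markers in the matrix result was not tested. Neuron markers were lower for 5 of 7, while the summed list, led by Meg3, stood at 2258 and 2192 against 1948 and 1846. Astrocyte markers summed to 369 and 374 against 959 and 1171, endothelial markers to 66.9 and 56.1 against 149 and 133. Osteoblast lineage markers, a list of 8, summed to 1076 and 793 against 642 and 434. Of 7 measured, Runx2, an osteoblast transcription factor, was higher and Bglap, osteocalcin, lower, and their part was not tested. The 12 myeloid markers summed to 345 and 420 against 298 and 437.

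The genes furthest above the other fibroblasts were Agtr1a, the angiotensin II receptor, then Erg, Slitrk6, Gm39075, Acan, Gm32849, Chrdl1, Rbpjl, Gask1a, Scube2, A630023P12Rik, Mfap4, Kctd8, Ptprv and Tnmd. Erg was at 78.1 and 197 CPM in the control-labelled female and male mouse and at 167 and 247 under the other label, against at most 20.6 in other fibroblasts. Acan, the aggrecan core protein of cartilage, had 36.3 and 26.5 against 1.44 and 2.66. Tnmd, tenomodulin of tendons, had 22.1 and 11.0 against 0.719 and 1.33, and Chrdl1, a BMP antagonist, 34.4 and 20.1 against 3.60 and 1.33.

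The genes furthest below the pool included 6 solute carriers, Slc6a12, Slc6a20a, Slc6a13, Slc22a6, Slc6a20b and Slc30a10, with Atp13a5, Ptgds, Mageb18, Lamc3, Trpm3, Aldh1a2, Ccdc33, Lef1 and Esr2. Several were as low in panel C, so their low level was not particular to members. For Slc6a20a the log2 ratio was -0.51 and -0.48 over panel C, against -7.47 and -7.32 over panel B. Slc6a13, Atp13a5, Lamc3, Slc30a10 and Lef1 were also low in panel C, and Mageb18 was high in panel D alone. Trpm3, Ptgds, Ccdc33 and Esr2 were lower in members than in panel C as well. Trpm3, a cation channel, was at 246 to 477 CPM in members over the mice and at 8759 to 13877 in the others. Ptgds, prostaglandin D synthase of the meninges, was at 52.4 to 76.9 against 1485 to 2006. Slc6a12 had 0 UMIs in members, which at a floor of 3 UMIs per library made it at least 27.1-fold and 48.3-fold lower than in the pool. In panel C it was at 0 CPM too. Slc6a20a and Slc6a20b are close copies, and how reads were shared between them is not known. Of the leptomeningeal list, 11 of 20 genes were lower than in the pool and 0 higher, with a median log2 ratio of -1.78 in each library.

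**Figure D3:**
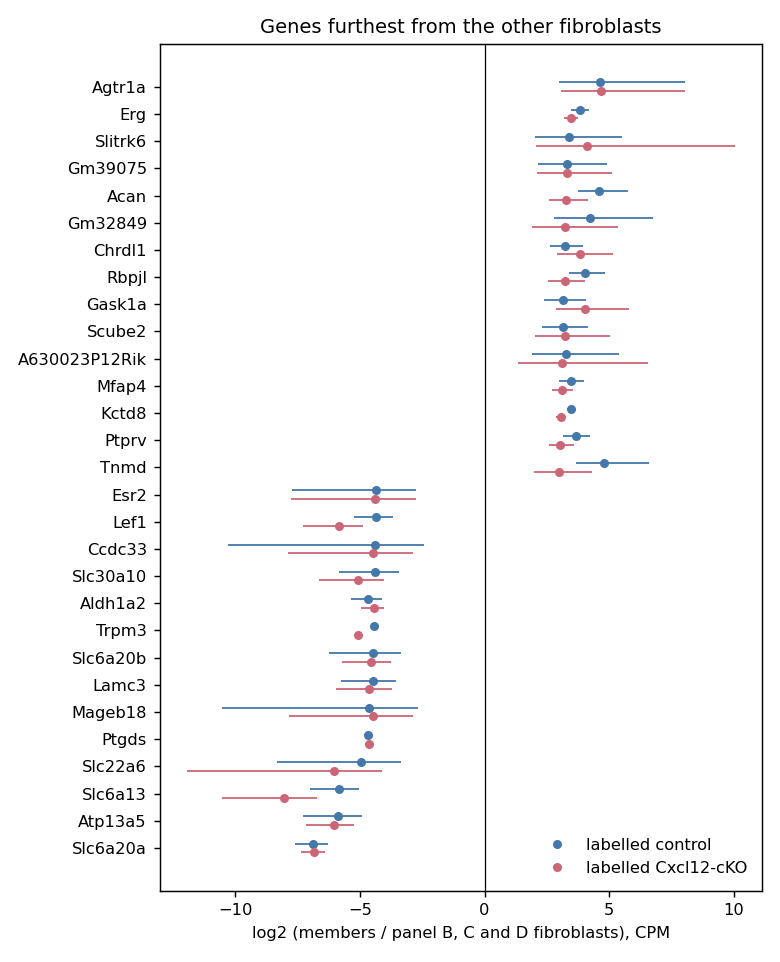
log2 ratio of CPM in members over panel B, C and D fibroblasts (x axis) for the 15 highest and 14 of the 15 lowest genes (y axis), with exact 95% intervals, by library; Slc6a12, at 0 UMIs in members, is not drawn. Erg sat at 3.82 and 3.46 and Trpm3 at -4.45 and -5.09.

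Signalling genes split. Igf1, insulin-like growth factor 1, was at 649 to 794 CPM over the mice against 96.3 to 187, and Bmper, a secreted BMP modulator, at 473 to 655 against 73.7 to 122. Wnt genes were lower for 9 of 30 (Wnt4, Wnt5a, Wnt6, Lgr4, Axin2, Lef1, Tcf7, Nkd1 and Notum) and higher for 2 (Lrp6 and Lgr5). Guidance genes were higher for 7 of 28 and lower for 2, Nrp2 and Robo1. Epha3, an ephrin receptor, stood at 1531 to 2418 against 213 to 303, and Slit2, a ligand of Robo receptors, at 2348 to 3860 against 752 to 1312. Cell cycle genes were higher for 6 of 12 and lower for 0, with medians of 0.78 and 1.65 at low levels, the list summing to 92.7 and 141 CPM against 53.2 and 48.3. Few nuclei carried Top2a and Mki67. Under the control label Top2a was found in 16 members, and 1 nucleus held 18 of its 57 UMIs. Under the Cxcl12-cKO label Mki67 was found in 25 members. None of the 16 EDA-EDAR and NF-kB genes passed the fold, Edar being a rule gene. A short list of names for late inner fibroblasts came from the study, which chose it on its own samples, so that its direction is not independent evidence. Cdh18 (1.38 and 2.26) and Sema3c (1.98 and 1.68) passed, and Fgf13 did not (1.45 and 0.81).

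**Figure D4:**
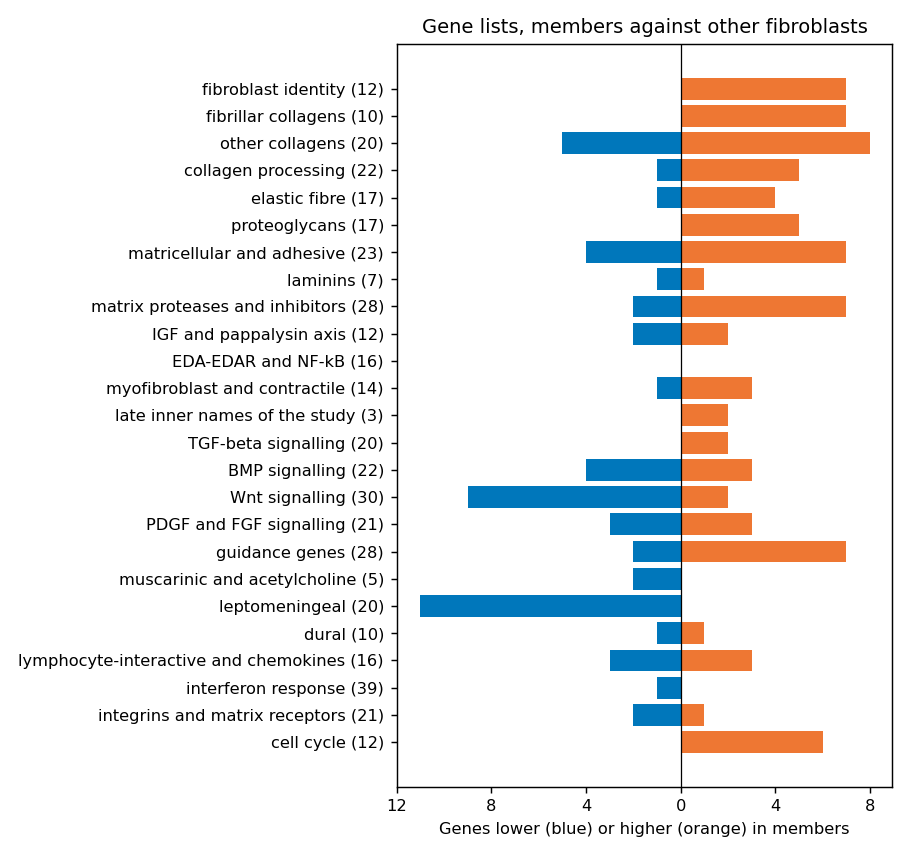
Number of genes at least 2-fold higher (orange, right) or lower (blue, left) in members than in panel B, C and D fibroblasts of both libraries (x axis), by gene list (y axis), with the number measured in brackets. Fibrillar collagens had 7 higher and 0 lower, and leptomeningeal genes 0 higher and 11 lower.

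Erg was found in 26.9% and 37.6% of members, against 1.02% and 2.35% of lesional Csf1r nuclei (median depths 3097 and 2932 UMIs). Thinned to 757 UMIs the share in members was 8.67% and 12.1%, against 0.723% and 1.08% of the other panel fibroblasts. Cxcl12 was found in 35.8% and 52.4% of members, 17.1% and 26.6% of other panel fibroblasts, and 4.59% and 3.53% of Csf1r nuclei. After thinning it was found in 9.83% and 18.5% of members and in 3.62% and 7.53% of other panel fibroblasts. Panel D came closest to members in Cxcl12 level, at 126 and 206 CPM against 150 and 293. Cdh18 was not confined to fibroblasts, as 84.3% and 85.9% of parenchymal Slc17a7 neurons, at median depths of 21619 and 23234, held it. Nor was Fgf13, found in 49.5% and 53.5% of lesional Csf1r nuclei against 20.4% and 14.4% of members. Igf1 was not confined to fibroblasts either, with 57.1% and 68.8% of lesional Csf1r nuclei against 64.8% and 65.8% of members.

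Between the labels, most genes of the members were close. Of 11534 genes with at least 50 UMIs, 308 (2.67%) were at least 1.5-fold higher under the Cxcl12-cKO label with an interval away from 0, and 332 (2.88%) lower, 640 (5.55%) in all. The median log2 ratio was 0.003. In 569 genes (4.93%) both mouse pairs had the same direction as the pooled value, 280 (2.43%) higher and 289 (2.51%) lower.

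The highest of these were Kcnip1, Mmp3, Cntnap5c, Mobp, Pappa2, Gm15987, C3, Rspo2, Mybl1, Col15a1, Pla1a and Mki67. For Kcnip1 a single nucleus held 47 of the 85 UMIs under the Cxcl12-cKO label, and without it the log2 ratio was 1.45 in place of 2.60. For Cntnap5c a single nucleus held 25 of 46, and the ratio without it was 1.23 in place of 2.34. Mmp3, stromelysin 1, had 1.92 and 13.9 CPM in the control-labelled female and male mouse and 31.4 and 44.7 under the Cxcl12-cKO label. A UMI of Mmp3 was found in 1.66% and 4.25% of members, so few nuclei carried it. Pappa2, the relative of Pappa, had 2.56 and 5.02 against 60.9 and 13.8, and complement C3 had 9.60 and 7.80 against 62.1 and 18.3. Both mice under the Cxcl12-cKO label lay above both control mice for these genes. Over all members Pappa2 was at 7.83 and 35.2 CPM. Under the control label that is above both mice, so the nuclei left out of the mouse values carried more of it. Mobp is a myelin gene, and beside it Mbp was higher as well (0.89). Under the Cxcl12-cKO label Mobp was at 10.1 CPM over all members, but at 3.20 in the female and 6.91 in the male mouse. Its log2 ratio in the female pair was 0.65, with an interval that held 0 (-1.62 to 3.42). Of the oligodendrocyte lineage markers 2 of 5 were higher, the summed list of 8 going from 248 to 290 CPM. Of the myeloid markers 2 of 10, Tyrobp and Ctss, were higher, Ctss short of the fold (0.58) without 1 nucleus. Their part was not tested.

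The lowest were Shisal1, Mest, Elovl7, Megf6, Bcan, Inhba, Gm32926, Gjc3, 2310061I04Rik, Gm15563, Prdm16 and Trdn. Inhba, the activin A subunit, had 8.32 and 25.1 CPM in the control-labelled female and male mouse and 2.56 and 7.73 under the other label. Here the highest mouse under the Cxcl12-cKO label lay just under the lowest control mouse. In 1 nucleus of the control-labelled male lay 20 of 66 Inhba UMIs, and without it that mouse was at 14.0 CPM. Elovl7 went from a log2 ratio of -1.66 to -1.05 without the nucleus with most of its UMIs. Prdm16, a transcription regulator, had 25.6 and 35.1 against 14.7 and 14.6.

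**Figure D5:**
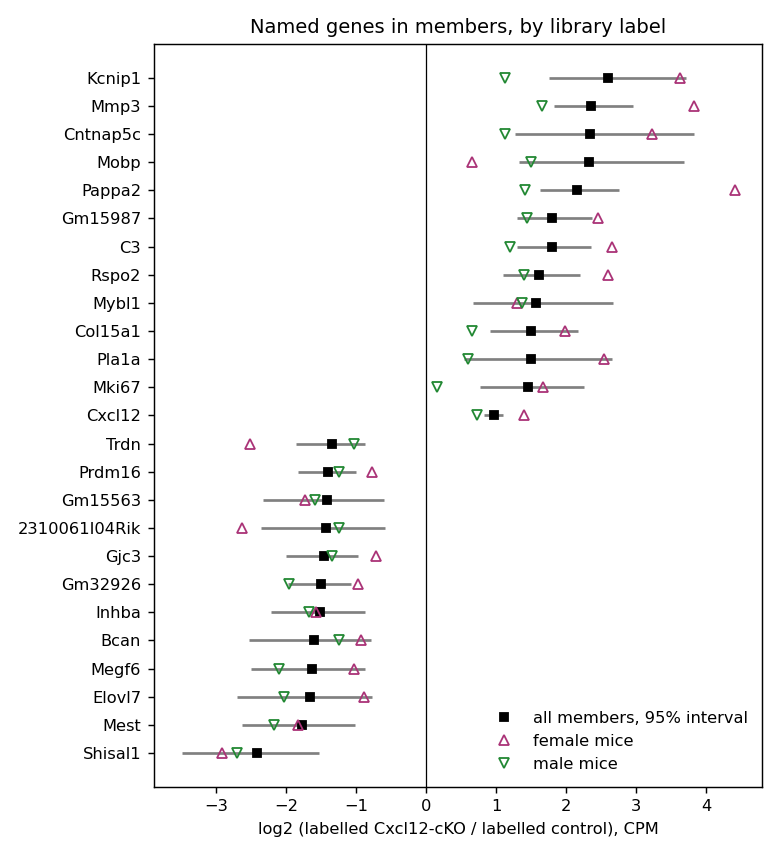
log2 ratio of CPM in members, labelled Cxcl12-cKO over labelled control (x axis), for Cxcl12 and the 24 named genes (y axis). Squares are all members with exact 95% intervals, and triangles are the female and the male pair; Mmp3 was at 2.35 over all members and Shisal1 at -2.42.

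Of the panel genes, Eln was higher under the Cxcl12-cKO label (log2 ratio 0.79, 0.71 to 0.88), with 218 and 530 CPM against 369 and 849, so that the groups overlapped. Matn4 had 264 and 338 against 204 and 200 (-0.58, -0.70 to -0.47), short of the fold. Edar, Pappa and Col14a1 were within 0.14 of 0. The rule counts all 5 genes, so these levels also reflect who was chosen. Fgf13 was lower (-0.78), at 158 and 201 against 122 and 113.

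Matrix lists moved in parts. Elastic fibre genes were higher for Fbn2 (but at -0.43 in the male pair), Mfap5 and Ltbp2 and lower for Mfap2, of 17 measured. Mfap5, a microfibril protein, had 11.5 and 17.8 CPM against 25.0 and 37.8. Proteoglycans were lower for 4 of 15 (Bcan, Aspn, Omd and Podn) with a list median of -0.40. Aspn, asporin, had 30.7 and 33.4 against 16.7 and 19.9. Matricellular genes were lower for 6 of 22, among them Tnc (-0.85, and -0.51 without the nucleus with most of its UMIs) and Comp, cartilage oligomeric matrix protein, with 34.6 and 8.92 against 14.1 and 5.29, and higher for 2, Ccn1 and Ccn4. Fibrillar collagens had a list median of -0.10 and 1 of 10 lower, Col11a2. Col1a2 was at -0.56 (-0.60 to -0.53), short of the fold, beside -0.89 (-0.94 to -0.83) in the pooled other fibroblasts; the difference was not tested. Tnmd (-0.99) and Chrdl1 (-0.77), among the genes furthest above other fibroblasts, were lower under the Cxcl12-cKO label in both mice.

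Of the immune-related lists, chemokine and lymphocyte-interactive genes were higher for 2 of 10, Cxcl12 and Icam1. Icam1, a leukocyte adhesion molecule, had 53.8 and 53.0 CPM against 64.1 and 85.0, and fell short of the fold (0.54) without 1 nucleus. Interferon genes had 1 higher and 2 lower of 35 and a median of 0.09. Eda, the ligand of Edar, had 275 and 348 against 182 and 203 (-0.62, and -0.58 without 1 nucleus, short of the fold), and Eda2r, a related receptor, 4.48 and 6.69 against 12.8 and 13.8. Cell cycle genes were higher for 6 of 12 (Top2a, Mki67, Kif11, Kif23, Tpx2 and Anln) and lower for 0, with a median of 0.62 over the list, 0.44 in the female and 0.23 in the male pair. Their summed level was low, 92.7 against 141 CPM over 20 genes. Mki67, a marker of dividing cells, had 6.40 and 6.13 against 21.1 and 6.91, so that the male mice hardly differed. Without the nucleus with most UMIs of each gene, Kif11 (0.34), Kif23 (0.79) and Tpx2 (0.25) no longer passed. TGF-beta signalling, integrin and laminin genes had none past the fold of 20, 18 and 6 measured.

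The mice of a library differed within the members in ways the labels do not describe, and these genes were chosen after their values were seen. Of 10709 genes with at least 50 UMIs, 43 (0.402%) were at least 2-fold higher in the female mouse of both libraries and 6 (0.0560%) at least 2-fold lower, sex-linked marker genes left out. Col6a5, a chain of type VI collagen, was highest among them, with 125 CPM in the female and 13.9 in the male mouse under the control label and 420 and 27.2 under the Cxcl12-cKO label. A single nucleus held 234 of the 794 Col6a5 UMIs under the Cxcl12-cKO label, where 77 members had any, and without it the female value was 271 and the log2 ratio between labels 0.94 in place of 1.44. Eln went the other way, at 218 and 530 and at 369 and 849. With 1 mouse of each sex per library, sex and mouse cannot be told apart.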

How the data were processed

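Single-nucleus 3′ RNA-seq counts of 2 libraries were used. The authors deposited UMI counts per gene and barcode, split into lesion and parenchyma by tag, and the labels name Cell Ranger 9.0.0 and GRCm39. Whether intronic reads entered the counts was not stated in those sources. The 4 matrices held 33696 genes and 12 tags, and 0 matrix columns were left unused. Members and gene lists were chosen with earlier results of these data known.

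UMIs were summed over members. Ratios of CPM used 0.5 added to each sum and exact conditional binomial 95% intervals. Shares had Clopper-Pearson intervals. Intervals and floors (3 UMIs) cover counting error only. No test between genotypes was made, with 1 library each and the mice told apart only by sex. Calls needed 50 UMIs over both groups, and 1.5-fold with an interval away from 0 between labels, or 2-fold in both libraries against other fibroblasts. Named genes were the 12 highest and 12 lowest between labels with the same sign in both mice, the 15 highest and 15 lowest against other fibroblasts, fixed genes, and the members of each list with most UMIs. Other genes named from a list were those past the fold, or were chosen after their values were seen. Of the list genes, 2 were not in the feature table. Results of 2 genes are not reported here. The ratio was tested on simulated data. Alternatives changed the panel and gene minimums, gate, filters, mice, weighting, scaling (DESeq2 1.42.0 size factors, edgeR 4.0.16 TMM) and added count. Scripts ran in Python 3.11.15 (scipy 1.17.1) and R 4.3.3.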

Additional observations from a re-analysis of the deposited data

Results flagged for a closer look

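Parenchymal barcodes were not used above, and 14 of 638 that passed the gate in the library labelled control (2.19%, exact interval 1.20 to 3.65) and 11 of 696 in the other (1.58%, 0.792 to 2.81) met the same rule. A count of 0 would have allowed 0.470% and 0.431%. Their median depth was 7657 and 7984 UMIs, and Col1a2 was at 0 and 352 CPM in them.

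Some genes moved in opposite directions between labels in the female and the male pair, each interval leaving out 0. The difference between the pairs was not tested, and sex and mouse cannot be told apart. Trpm3, the cation channel, had a log2 ratio of -0.95 in female and 0.40 in male mice. Igfbp5, a binding protein of insulin-like growth factors, had a log2 ratio of -0.96 in female and 0.18 in male mice. Chrm3, a muscarinic acetylcholine receptor, had a log2 ratio of -0.88 in female and 1.39 in male mice. Slc47a1, a transporter, had a log2 ratio of -1.65 in female and 0.12 in male mice. Gpnmb, a glycoprotein also listed as a myeloid marker, had a log2 ratio of -0.66 in female and 1.53 in male mice. Gpc5, a glypican listed as an astrocyte marker, had a log2 ratio of 1.39 in female and -1.06 in male mice. Smaller opposite ratios were found for Sema3c (0.63 and -0.26), Col8a1 (0.53 and -0.55), Fbln1 (-0.20 and 0.29), Efemp1 (-0.26 and 0.43), Vcan (0.39 and -0.35), Robo2 (0.26 and -0.14), Foxp1 (-0.13 and 0.10), Meg3 (0.33 and -0.14) and Syt1 (-0.41 and 0.36), female before male.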

How the results depend on the processing

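Of the values over the whole library, the log2 ratio of the member share moved by mouse, to 0.10 in female and 0.37 in male mice, against 0.24. Genes higher under the Cxcl12-cKO label went from 308 to 463 with the female mice alone and to 88 at a minimum of 200 UMIs, and genes lower from 332 to 111 at that minimum. The same minimum, which tests fewer genes, left 259 genes higher and 506 lower in members than in other fibroblasts, against 404 and 769. With nuclei weighted alike these were 490 and 605. The Cxcl12 ratio in panels B, C and D went from 0.93 to 0.75 at a panel minimum of 5. Thinning lowered the share of members with 3 or more panel genes to 3.12% and 3.83%. Of the called ratios between labels, some turned with the mice of 1 sex. With the female mice alone Chrm3 was at -0.88, Skap1 at 0.00, Ccn3 at 0.26, Lgr5 at 0.62 and Kif23 at -0.13. With the male mice alone Gpc5 was at -1.06, Cdh19 at 0.33, Fbn2 at -0.43, Wnt16 at 0.59 and Iigp1 at 0.14. Gpc5 also turned at a panel minimum of 5 (-0.44). In an alternative chosen after seeing the data, the nucleus with most UMIs of a gene was left out. It covered 85 of the 640 called genes, those named or in a list. Of these, 17 lost their call, and Gpc5 turned to -0.50. Each checked gene was counted once under each of the 13 alternatives of panel, filter, mice, weighting and scaling, so the following are not counts of genes. Of the ratios between labels 1071 stayed inside their interval, 101 left it in the same direction and 11 turned. Of those against other fibroblasts 719 stayed and 61 left it, with 0 turned. Female and male pairs are given as values, and no fit with sex as a block was made. Low UMI sums limit the ratios of low genes.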

Other observations

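Interferon response genes were 9 of the 43 genes at least 2-fold higher in the female mouse of both libraries, and they were looked at after their values were seen. Oas2, an antiviral synthetase, had 30.1 and 7.25 CPM in the female and male mouse under the control label and 55.7 and 13.4 under the other. Iigp1, an interferon-induced GTPase, had 106 and 18.4, and 58.9 and 20.3. Of 35 interferon list genes measured, 33 were higher in the female mouse of both libraries and 1 lower, beside 25.5% each way over all genes. Summed over the list, members under the control label had 1838 CPM in the female and 886 in the male mouse, and members under the other label 1898 and 1045. In the other panel fibroblasts it was at 2100 and 1257, and 1777 and 1204.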
